A study of Nannochloropsis oceanica with 8 samples.

Results

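The peaks of chromosomes 26 to 30 of the oil-storing marine alga *Nannochloropsis oceanica*, strain IMET1, were described for lysine butyrylation (Kbu) and for dimethylation of lysine 9 of histone H3 (H3K9me2) under ample and scarce CO2. They were taken by position alone, as every peak that the deposited tables place on those chromosomes, and they number 526 of 6185 (8.50%). Chromosome 26 carried 122 peaks, chromosome 27 carried 107, chromosome 28 carried 109, chromosome 29 carried 113 and chromosome 30 carried 75. The label of the set, the smallest chromosomes, was checked against the distance from the first to the last peak. That distance was 641919, 633993, 584616, 577834 and 497242 bp on chromosomes 26 to 30, the 5 shortest of the 30, and the next was 677082 bp on chromosome 25.

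Chromatin immunoprecipitation and sequencing (ChIP-seq), which recovers the DNA bound to a marked histone, gave 8 libraries in 4 groups of 2. All came from IMET1 cells grown in column reactors under constant light, and no group carried a genetic change. High CO2 cells received air with 5% CO2 throughout, and low CO2 cells were moved from 5% to 0.04% CO2, with sampling at 24 h. The labels describe 3 cultures per CO2 level without tying libraries to them, so p-values measure the spread between libraries, which may be technical, and the H3K9me2 antibody lots in the labels are consecutive numbers, 1 per library, which may come from filling in a spreadsheet.

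Histone butyrylation places a short-chain acyl group on lysines and draws on butyryl-CoA from metabolism. In the eukaryotes where it has been mapped it lies at promoters of transcribed genes, as lysine acetylation does. H3K9me2 is laid down by histone methyltransferases and in plants and animals marks silent genes and transposons. The gene content around these peaks was not analysed here, and coordinates are those of the deposited tables. The sources used here do not give their genome build.

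The value used throughout is the ChIP pileup, the height of stacked reads at a peak. A level is that pileup divided by the lowest control value of the same library, called the genome background below, so a level of 1 is the background. For the median member 831 and 590 reads lay behind the pileup in the high CO2 libraries of Kbu, 166 and 102 in those of low CO2, and 29 to 69 in the H3K9me2 libraries. Counting error was therefore 3.47% to 9.88% for Kbu and 12% to 18.6% for H3K9me2. The control at the median member was 1.33 ± 0.047 (SD, n = 2) times its lowest value with the Kbu libraries of high CO2 and 3.50 ± 0.023 with those of low CO2. Log2 values of the control correlated across the 526 peaks at 0.958 to 0.989 among high CO2 libraries, 0.999 to 1.000 among low CO2 libraries and 0.429 to 0.436 between the CO2 levels. Because the control moved with CO2, the pileup without control was tested and the deposited ratio to control is given beside it, and the part of the control in either result was not tested.

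Peaks lay farther apart on the small chromosomes than on the rest of the genome. The median gap from the end of a peak to the start of the next was 3745 bp (quartiles 2262 and 5765 bp, 521 gaps), against 3081 bp (quartiles 1821.75 and 4927.75 bp, 5634 gaps) on chromosomes 1 to 25, a ratio of 1.22. Each of the 5 had a median gap above the median chromosome of the other 25, which had 3047.5 bp. Chromosome 27 had the widest median gap of the 30 (4408.5 bp) and chromosome 30 the next (4013 bp). Chromosomes 28, 29 and 26 followed at ranks 4, 6 and 9 with 3579, 3500.5 and 3375 bp. A single peak set serves all libraries, so these distances have no replicate and no test.

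Peaks were also fewer per length. The 5 chromosomes held 17.9 peaks per 100 kb between their outermost peaks and chromosomes 1 to 25 held 20.4, and peaks covered 18.0% and 20.2% of that length. Chromosome 30 was the sparsest of the 30 at 15.1 peaks per 100 kb and chromosome 27 the next at 16.9. Chromosome 29, at 19.6, ranked 18 of 30. The value of chromosome 30 rests on a stretch of 99929 bp without a peak, the widest gap in the tables, ahead of 99688 bp on chromosome 9. With every gap over 20 kb taken out of the length, a choice made after seeing the data, chromosome 30 held 18.9 peaks per 100 kb, the 5 chromosomes 18.8 and chromosomes 1 to 25 held 21.0. Across the 30 chromosomes the Spearman correlation of peak density with span was 0.741, and over chromosomes 1 to 25 alone it was 0.648, as a description of chromosomes that share 1 peak set.

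Over the 5 chromosomes together gaps were wider near the ends, but not on chromosomes 27 and 28. Peaks within 100 kb of an outermost peak made up 28.1% of the members and 14.8% of the peaks of chromosomes 1 to 25. In that zone the median gap was 4246 bp on the small chromosomes and 4082 bp on the others, a ratio of 1.04. More than 100 kb inside it was 3661.5 and 2976 bp. On chromosome 27 the median gap was 3928 bp near the ends and 4521 bp inside, and on chromosome 28 it was 3382 and 3878 bp. Chromosomes 26, 29 and 30 had 4377, 4719 and 4103 bp near the ends and 3200, 3349 and 4013 bp inside. Very short gaps, under 1 kb, made up 4.80% of gaps on the small chromosomes and 6.76% on the rest, and gaps over 10 kb made up 5.18% and 4.28%.

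**Figure D1:**
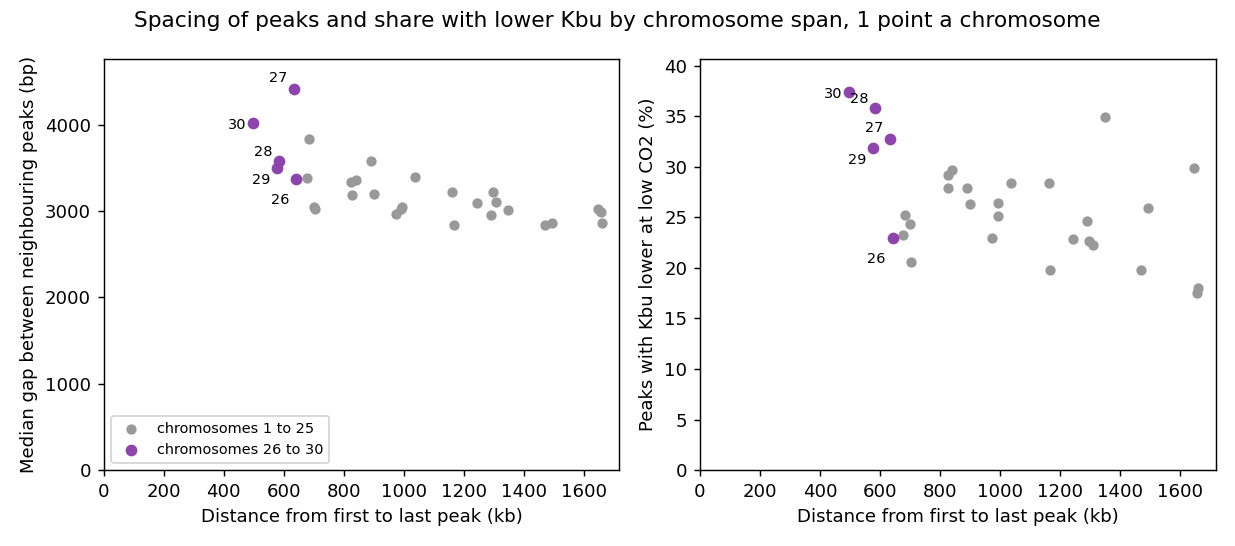
Median gap between neighbouring peaks in bp (left) and share of peaks with Kbu lower at low CO2 in percent (right) against the distance from the first to the last peak in kb, with 1 point for each of the 30 chromosomes and chromosomes 26 to 30 labelled. Chromosomes 27 and 30 have the widest median gaps, 4408.5 and 4013 bp, and chromosomes 30 and 28 the highest shares, 37.3% and 35.8%.

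Peak widths were close to those of the other chromosomes. The median member was 1026.5 bp wide (quartiles 779.25 and 1179 bp) and the median peak of chromosomes 1 to 25 was 1032 bp wide (quartiles 756 and 1168.5 bp). The 5 medians ran from 992 bp on chromosome 30 to 1046 bp on chromosome 28, inside the range of the other chromosomes, 981 to 1077 bp. Peaks of 1500 bp or more numbered 32 among the members (6.08%), with 12 on chromosome 26, 9 on chromosome 29, 7 on chromosome 27, 4 on chromosome 28 and 0 on chromosome 30, against 3.87% on chromosomes 1 to 25. Peaks under 500 bp were 4.18% of members and 4.4% of the rest, and 6 of the 22 lay on chromosome 30.

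Most of these peaks carried Kbu, and its level over the background was lower at low CO2. At high CO2 the median member stood at 3.74 ± 0.052 times the genome background (SD, n = 2), and the median peak of chromosomes 1 to 25 at 3.71 ± 0.0061. At low CO2 the levels were 2.53 ± 0.026 and 2.59 ± 0.066. In each set the 2 libraries of high CO2 lay above both of low CO2. The level is relative to the background of each library, which differed between the CO2 levels, and less Kbu and a different background cannot be told apart here.

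At high CO2, 487 members (92.6%) reached 2 times the genome background in both libraries, against 92.7% of all peaks. At low CO2 it was 381 (72.4%), against 75.2% of all peaks. Both conditions were met by 375 members (71.3%; all peaks 74.1%) and high CO2 alone by 112 (21.3%; all peaks 18.5%). Low CO2 alone was met by 6 (1.14%; all peaks 1.08%) and neither by 33 (6.27%; all peaks 6.22%). Chromosome 30 stood lowest, with a level of 2.27 ± 0.016 at low CO2 (SD, n = 2) and 45 of 75 peaks (60.0%) at 2 times the background, the smallest share of the 30 chromosomes. On chromosome 26 the level was 2.65 ± 0.095 and the share 78.7%, and chromosomes 27, 28 and 29 lay between them with 72.9%, 73.4% and 72.6%. At high CO2 chromosome 30 had 3.66 ± 0.0027, and the other 4 ran from 3.68 ± 0.075 to 3.83 ± 0.026. The share of chromosome 30 at 2 times the background was low at high CO2 too, at 88.0% (rank 29 of 30), against 92.7% of all peaks. Of its peaks 10.7% reached it at neither CO2 level, against 6.22% of all peaks.

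Within a library the difference between small chromosomes and the rest does not depend on scaling. The log2 median of the members minus that of chromosomes 1 to 25 was 0.03 and -0.0037 in the Kbu libraries of high CO2 and -0.02 and -0.05 in those of low CO2. The low CO2 libraries were both below the high CO2 libraries, by 0.05 on average, with an exact two-sided permutation p of 0.333, the smallest that 2 against 2 libraries can give. The control moved by the same amount, from 0.04 in both high CO2 libraries to -0.0092 and -0.0095 in those of low CO2. With the ratio of pileup to control the differences were 0.01 and -0.01 at high CO2, against 0.0026 and -0.03 at low CO2, so the groups overlapped (exact permutation p = 0.667). Without chromosome 30 the pileup difference was -0.02 (exact permutation p = 0.667). For chromosome 30 alone the differences were -0.02 and -0.02 at high CO2, against -0.15 and -0.22 at low CO2. The low CO2 libraries were again both lower (exact permutation p = 0.333), and chromosomes 26 to 29 had low minus high values from -0.06 to 0.02 in the same units.

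**Figure D2:**
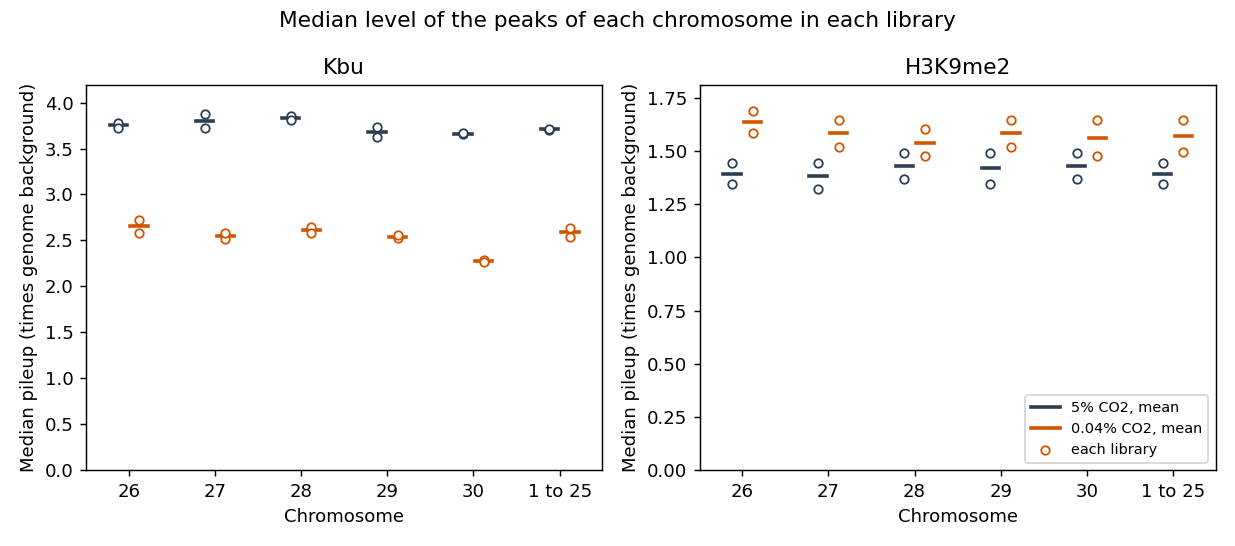
Median pileup, in times the genome background, of the peaks of chromosomes 26, 27, 28, 29 and 30 and of chromosomes 1 to 25 together, for Kbu (left) and H3K9me2 (right). Circles are libraries and bars the mean of the 2 libraries at 5% CO2 (dark) and 0.04% CO2 (orange), and chromosome 30 has the lowest Kbu level at low CO2, 2.27.

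The comparison of low with high CO2 peak by peak asked which Kbu sites gained or lost relative to the typical peak. Each library was scaled to 1 geometric mean over all 6185 peaks, log2 of the scaled pileup plus 1 was fitted with limma over all peaks, and Benjamini-Hochberg adjusted p under 0.05 was the threshold. Kbu was higher at low CO2 in 108 members (20.5%), against 21.8% of all peaks, and lower in 166 (31.6%), against 25.2% of all peaks and 24.6% of chromosomes 1 to 25. The other 252 did not pass. The median log2 change was -0.06 (quartiles -0.27 and 0.17) in the members and -0.02 (quartiles -0.21 and 0.18) on chromosomes 1 to 25. The share of lower calls in the members was above that of chromosomes 1 to 25 with each library left out, but the count depended on the libraries. It was 103 without Kbu high CO2 replicate 1 (19.6% against 12.8%), 95 without high CO2 replicate 2 (18.1% against 13.2%), and 200 and 196 without low CO2 replicates 1 and 2.

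By the scaled pileup, 4 of the 5 chromosomes had more Kbu peaks lower than higher, and by the ratio to control all 5 had more higher than lower. Chromosome 30 had 28 lower peaks (37.3%), the highest share of the 30 chromosomes, and 12 higher (16%). Chromosome 28 followed with 39 lower (35.8%, rank 2) and 21 higher, chromosome 27 with 35 lower (32.7%, rank 4) and 21 higher, and chromosome 29 with 36 lower (31.9%, rank 5) and 23 higher. Rank 3 was held by chromosome 6, with 34.9%. Chromosome 26 had 28 lower (23.0%, rank 22) and 31 higher (25.4%, rank 6). Without chromosome 30 the other 4 together had 138 lower peaks (30.6%). Leaving out high CO2 replicate 1 or 2 brought chromosome 30 to 19 and 15 lower peaks, with ranks 1 and 3. By the ratio 38, 47, 43, 53 and 29 peaks of chromosomes 26 to 30 were higher and 36, 36, 31, 34 and 26 lower, and the ranks of the lower share were 18, 5, 23, 15 and 3. Relative to the genome background those ranks were 18, 13, 3, 7 and 11.

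The counts depended on the scaling. Relative to the genome background the median Kbu change over all peaks was -0.52 on the log2 scale and that of the members -0.55, and on that scale 24 members were higher (all peaks 3.61%) and 450 lower (all peaks 83.7%). All 166 members called lower kept that call there, and 24 of the 108 called higher did. Over all peaks it was 1557 of 1557 and 223 of 1349, since the general downward shift on that scale fixes much of this outcome. With the deposited ratio to control, 210 members were higher (all peaks 40.0%) and 163 lower (all peaks 30.4%), so that the lower share was 31.0% in the members and 30.3% on chromosomes 1 to 25. With library totals made equal the ratio gave 157 higher and 209 lower members, which turned the balance, as it did over all peaks (1936 and 2507). Of the 166, 111 were also lower by the ratio (all peaks 993 of 1557). Among the 108 higher and 166 lower members, 13 were called the opposite way by it, as were 194 of the 1349 higher and 1557 lower peaks of the whole set.

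Members with lower Kbu were those with the higher level at high CO2. The 166 members with lower Kbu had a median level of 4.42 under high and 2.36 under low CO2, a median width of 1063 bp and a low CO2 control of 3.86 times its lowest value. The 108 with higher Kbu had 2.92 and 2.83, 959.5 bp and 2.86. The same values on chromosomes 1 to 25 were 4.26, 2.29, 1075 bp and 3.85 for lower peaks and 3.02, 2.84, 960 bp and 3.13 for higher peaks. The level at high CO2 is part of the change, so this order is a description only. Lower calls made up 34.5% of members within 100 kb of an outermost peak and 30.4% of those farther inside, against 30.9% and 23.5% on chromosomes 1 to 25. Among the 5 that order held on chromosomes 27 (46.9% and 26.7%) and 29 (40.6% and 28.4%), and the reverse on chromosomes 26 (22.6% and 23.1%), 28 (29.4% and 38.7%) and 30 (31.6% and 39.3%).

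**Figure D3:**
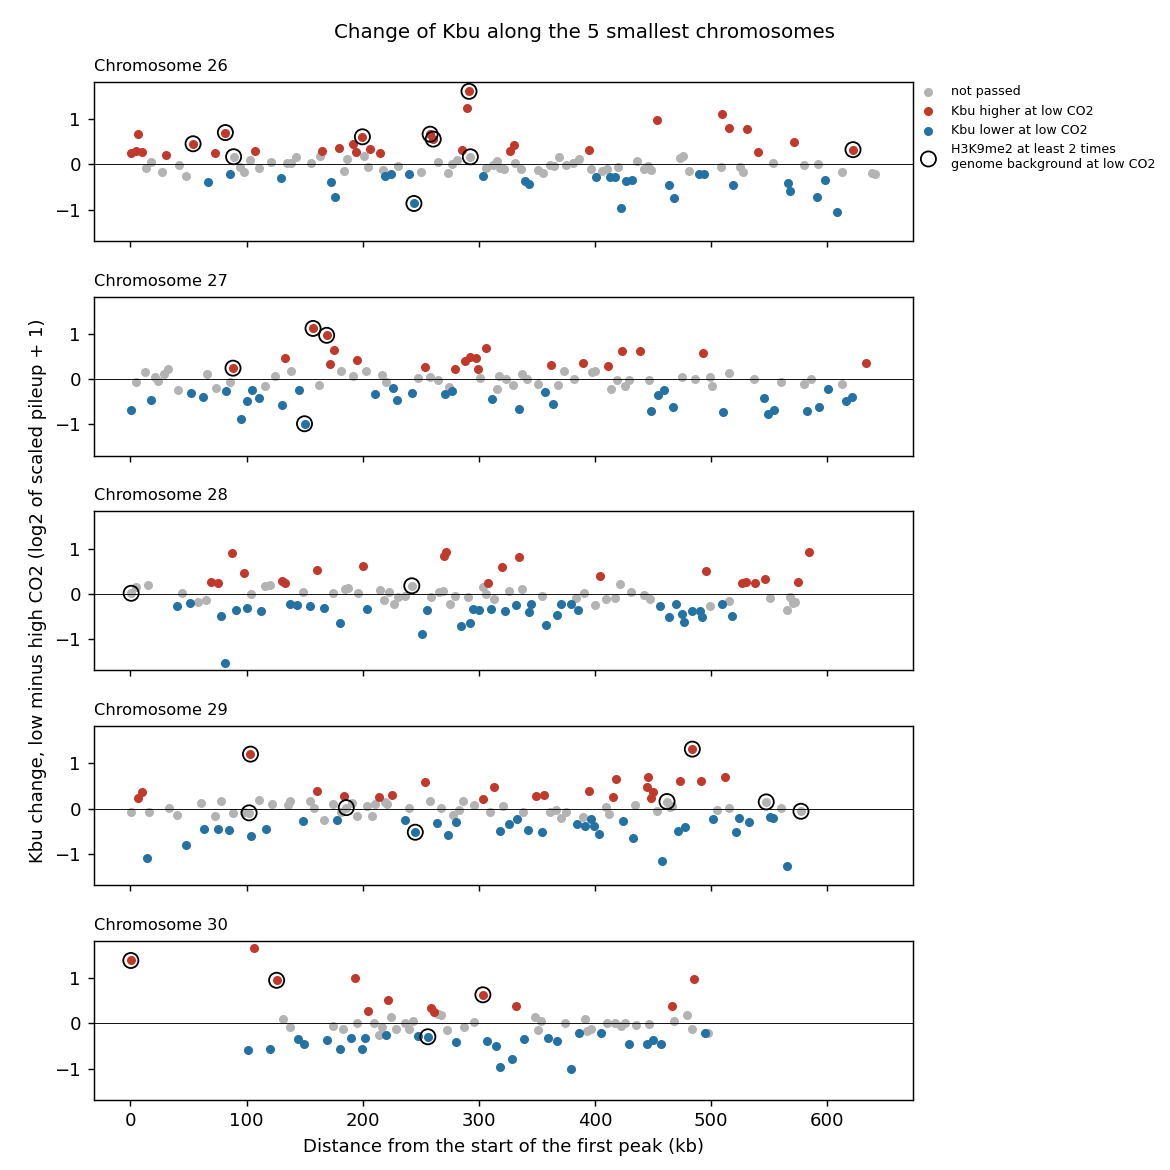
Log2 change of scaled Kbu pileup, low minus high CO2, against distance from the start of the first peak in kb, 1 panel for each of chromosomes 26 to 30 and 1 point for each of the 526 peaks. Red and blue mark peaks higher and lower at low CO2 (limma, adjusted p under 0.05), grey those that did not pass, and open circles the 28 peaks with H3K9me2 at 2 times the genome background or more in both low CO2 libraries. Both colours occur on each chromosome, in shares that differ along it, and the empty stretch at the left of chromosome 30 is the gap of 99929 bp.

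H3K9me2 was weak at these peaks. At high CO2 the median member stood at 1.39 ± 0.069 times the genome background, and with scarce CO2 it stood at 1.57 ± 0.11 (SD, n = 2 each). The medians of chromosomes 1 to 25 were the same in every library. Pileups moved in whole reads, with 29 to 69 reads at the median member, so equal medians can hide a difference smaller than a read. No member reached 2 times the background in both high CO2 libraries (all peaks 0.162%), and 28 did in both low CO2 libraries (5.32%), against 5.13% of all peaks. Of these 28, 10 lay on chromosome 26, 8 on chromosome 29, 4 each on chromosomes 27 and 30 and 2 on chromosome 28. The shares of chromosomes 26 (8.20%) and 29 (7.08%) ranked 2 and 3 of the 30 and that of chromosome 28 (1.83%) ranked 30.

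With limma on the scaled pileup, H3K9me2 was higher at low CO2 in 26 members (4.94%), against 3.99% of all peaks. It was lower in 0 members, against 1.03% of all peaks, with 40 members lower at an unadjusted p under 0.05 (412 of all 6185 peaks) and 52 lower with limma on the deposited ratio. Chromosome 26 had 14 of the 26 higher peaks (11.5%, the highest share of the 30 chromosomes by the pileup), chromosome 29 had 5, chromosomes 27 and 30 had 3 each and chromosome 28 had 1 (0.917%, the lowest). Each library mattered: 13, 14, 8 and 15 members were higher without high CO2 replicate 1, high CO2 replicate 2, low CO2 replicate 1 and low CO2 replicate 2, of which chromosome 26 had 7, 6, 5 and 9, with ranks 1, 2, 3 and 1. By the ratio chromosome 26 had the lowest share of the 30, 18.9%, and 6 of its 14 peaks were also higher. Relative to the genome background, where the median over all peaks was 0.17 higher at low CO2, 30 members were higher (all peaks 4.92%), and by the ratio 132 were higher (all peaks 24.5%) and 52 lower (all peaks 12.1%). The 52 fell to 1 and 10 without high CO2 replicates 1 and 2.

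The 2 marks met at some members. In 14 members both were higher at low CO2 (all peaks 2.78%), 9 of them on chromosome 26, and in 4 H3K9me2 was higher and Kbu lower, against 13 of the 6185 peaks in all. The 28 members with H3K9me2 at 2 times the background were wide, with a median of 1386.5 bp and 11 of at least 1500 bp. Kbu at 2 times the background at high CO2 was found at 24 of the 28, against 487 of all 526 members (92.6%). It was found at 244 of the 289 such peaks of chromosomes 1 to 25. Kbu was higher at low CO2 in 15 of the 28 and lower in 4. On chromosomes 1 to 25 the 289 peaks of this kind had a median width of 1306 bp, and Kbu was higher in 206 and lower in 18 of them. A second such peak lay within 20 kb of 12 of the 28 (42.9%), against 33.2% on chromosomes 1 to 25, and 7 of the 12 were on chromosome 26 and 3 on chromosome 27.

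The peaks named below were taken by rule on each chromosome: the highest Kbu level at high CO2, the largest Kbu rise and fall, the highest H3K9me2 at low CO2, the widest peak and the neighbours of the widest gap. As extremes they overstate the typical change. Changes are log2 of the scaled pileup plus 1, low minus high CO2, with the standard error and the adjusted p of limma over all peaks, and levels are in times the genome background. Passing refers to that fit alone. Some changes that did not pass by it passed by the ratio, among them H3K9me2 at peak3847 (-0.86), peak3877 (0.62), peak4396 (2.36) and peak4398 (1.44) and Kbu at peak4057 (-0.68). The reverse also occurred, as at peak3758.

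On chromosome 26 the strongest change of both marks fell on 1 peak. At peak3663 (chr26:291185-292539, 1354 bp) Kbu levels were 0.923 and 1.02 at high CO2, against 2.25 and 2.16 at low CO2. H3K9me2 levels were 1.35 and 1.54 at high CO2, against 3.91 and 3.68 at low CO2. Both marks were near or moderately above background at high CO2, and in neither did the groups overlap. The change was 1.62 ± 0.11 (SE, adjusted p = 2.26e-06) for Kbu and 1.15 ± 0.15 (SE, adjusted p = 1.24e-11) for H3K9me2. Its neighbour peak3664 starts 83 bp after its end, the smallest gap of the 5 chromosomes, and differed at high CO2, with Kbu levels of 3.58 and 3.46, a level 3.62 times as high.

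The largest Kbu fall on chromosome 26 was at peak3724 (chr26:607772-608776, 1004 bp). Its levels were 3.49 and 3.57 at high CO2, against 1.26 and 1.09 at low CO2, so that it stood close to the background in both low CO2 libraries. The change was -1.05 ± 0.10 (SE, adjusted p = 2.56e-05), and H3K9me2 there was 1.26 and 1.43 at low CO2. At the peak with the most Kbu, peak3622 (chr26:88347-90037, 1690 bp), the levels were 7.33 and 7.43 at high CO2, against 5.43 and 6.34 at low CO2. That change did not pass (0.17 ± 0.07, SE, adjusted p = 0.0664) and had the opposite sign relative to the genome background (-0.33) and by the ratio (-0.52). The widest peak, peak3716 (chr26:552550-554728, 2178 bp), had Kbu levels of 4.05 and 3.95 at high and 2.87 and 2.86 at low CO2 and did not pass either (adjusted p = 0.805).

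The widest gap of chromosome 26, 14652 bp, followed peak3726 (chr26:621637-623307). There H3K9me2 rose from levels of 1.27 and 1.24 to 3.12 and 2.99, with no overlap, by 1.03 ± 0.15 (SE, adjusted p = 1.19e-09). On the other side of the gap peak3727 (chr26:637959-638891) had H3K9me2 levels of 1.37 and 1.29 at high and 1.52 and 1.69 at low CO2 (adjusted p = 0.909). Thus the peaks on either side of this gap differed in H3K9me2 at low CO2. Their Kbu levels at high CO2 were 3.77 and 3.73 before the gap and 4.02 and 4.37 after it. The Kbu change passed before the gap (0.33, limma, adjusted p = 0.00414) and not after it (-0.19, adjusted p = 0.201). By the ratio these Kbu changes were -0.10 and -0.22, and only the second passed (limma, adjusted p = 0.0435).

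On chromosome 27, 3 named peaks were near neighbours, all with H3K9me2 over 2 times the background at low CO2. Peak3755 (chr27:151359-153694, 2335 bp) was the widest member, had the highest Kbu of its chromosome and fell most. Its Kbu levels were 8.29 and 8.80 at high CO2, against 2.93 and 3.11 at low CO2, a change of -0.98 ± 0.06 (SE, adjusted p = 1.78e-06). H3K9me2 at the same peak went from 1.52 and 1.44 to 2.50 and 2.69, a change of 0.58 ± 0.15 (SE, adjusted p = 0.00389), so the marks moved in opposite directions. Its low CO2 control was 9.01 times the lowest value, and with the ratio H3K9me2 there had a change of -0.36.

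The next peak, 5355 bp on, showed the reverse for Kbu. At peak3756 (chr27:159049-160712, 1663 bp) Kbu levels were 2.73 and 2.49 at high CO2, against 4.13 and 4.00 at low CO2, the largest rise of the chromosome (1.12 ± 0.08, SE, adjusted p = 3.20e-06). H3K9me2 there went from 1.47 and 1.44 to 2.32 and 2.38 (adjusted p = 0.0366). At peak3758 (chr27:170714-172489, 1775 bp) H3K9me2 was highest, at 2.97 and 3.77 against 1.22 and 1.34 at high CO2, and Kbu went from 3.92 and 4.56 to 5.61 and 6.19. Neither mark overlapped between the groups at peak3758, and both changes passed, with 1.13 ± 0.15 (SE, adjusted p = 1.43e-11) for H3K9me2 and 0.97 ± 0.08 (SE, adjusted p = 8.31e-06) for Kbu. By the ratio these 2 changes were 0.16 and 0.01. The neighbours of the widest gap of chromosome 27 (20366 bp), peak3821 (chr27:517723-519042) and peak3822 (chr27:539408-540065), passed for neither mark by the scaled pileup. By the ratio peak3822 passed for Kbu (0.76, limma, adjusted p = 1.13e-13) and peak3821 for neither mark.

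Chromosome 28 held the largest Kbu fall of the members and little H3K9me2. At peak3847 (chr28:81058-82866, 1808 bp) the Kbu levels were 7.40 and 7.40 at high CO2, against 1.78 and 1.76 at low CO2. The peak was the highest and the widest of its chromosome, and the groups were far apart, with a change of -1.53 ± 0.07 (SE, adjusted p = 1.57e-07). H3K9me2 there was 1.42 and 1.69 at high and 1.32 and 1.47 at low CO2 (adjusted p = 0.24). The largest rise was at the last peak of the chromosome, peak3944 (chr28:583955-584811, 856 bp), with Kbu levels of 2.19 and 1.96 at high and 2.87 and 2.73 at low CO2, a change of 0.92 ± 0.09 (SE, adjusted p = 3.39e-05).

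The highest H3K9me2 on chromosome 28 was at peak3877 (chr28:241708-243127), with 1.45 and 1.64 at high and 2.06 and 2.43 at low CO2, the lowest such maximum of the 5 chromosomes. The groups did not overlap but the change did not pass (adjusted p = 0.245). The 1 H3K9me2 peak called higher was the first of the chromosome, peak3836 (chr28:195-1362), with 1.14 and 1.19 at high and 2.28 and 2.17 at low CO2 (adjusted p = 0.00028), named after its value was seen. The widest gap of 23529 bp lay between peak3838 (chr28:14724-15877) and peak3839 (chr28:39406-40909). Kbu at peak3839 was lower at low CO2, with 4.80 and 4.79 against 2.93 and 2.66 (adjusted p = 0.0165), and peak3838 did not pass. By the ratio the Kbu change at peak3838 was 0.58 (limma, adjusted p = 2.45e-08).

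Chromosome 29 carried the highest Kbu level of the 5 chromosomes at its last peak. Peak4057 (chr29:579848-580964, 1116 bp) had levels of 10.3 and 10.1 at high CO2, against 7.40 and 6.49 at low CO2. Relative to the typical peak it did not pass (-0.06 ± 0.08, SE, adjusted p = 0.559). The peak before it behaved otherwise: peak4056 (chr29:567303-568894, 1591 bp) had Kbu levels of 4.29 and 4.19 at high CO2, against 1.27 and 1.17 at low CO2, the largest fall of the chromosome (-1.26 ± 0.09, SE, adjusted p = 3.77e-06). H3K9me2 at peak4056 was 1.24 and 1.65 at low CO2 and did not pass.

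Peak4043 (chr29:486283-487484, 1201 bp) had the largest Kbu rise of chromosome 29 and the highest H3K9me2 of all 526 members. Its H3K9me2 levels were 1.42 and 1.34 at high CO2, against 4.23 and 4.03 at low CO2, and its Kbu levels 1.78 and 1.95 at high and 3.18 and 3.53 at low CO2. Both marks were higher in both low CO2 libraries, with changes of 1.32 ± 0.15 (SE, adjusted p = 8.67e-15) for H3K9me2 and 1.31 ± 0.09 (SE, adjusted p = 1.9e-06) for Kbu. The widest peak, peak3990 (chr29:247345-249360, 2015 bp), had Kbu levels of 6.87 and 6.69 at high and 3.40 and 3.23 at low CO2 and fell (-0.52 ± 0.07, SE, adjusted p = 0.000177). The neighbours of its widest gap (15840 bp), peak3949 (chr29:19054-19912) and peak3950 (chr29:35752-36500), passed for neither mark by the scaled pileup. By the ratio peak3949 passed for Kbu (0.96, limma, adjusted p = 1.64e-14) and H3K9me2 (1.18, adjusted p = 3.78e-10). Peak3950 passed by the ratio for Kbu only (0.39, adjusted p = 0.000209).

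On chromosome 30 the first peak stood alone beyond the gap of 99929 bp. Peak4396 (chr30:707-1324, 617 bp) had Kbu levels of 0.655 and 0.659 at high CO2, against 1.44 and 1.17 at low CO2, and H3K9me2 levels of 1.62 and 1.64 at high and 2.26 and 2.43 at low CO2. Kbu there was below the background at high CO2 and just above it at low CO2, and the change passed (1.39 ± 0.15, SE, adjusted p = 4.49e-05), while that of H3K9me2 did not (adjusted p = 0.287). Its control at low CO2 was at the lowest value in both libraries. After the gap peak4397 (chr30:101253-102484) had Kbu levels of 4.30 and 4.17 at high and 2.13 and 1.79 at low CO2 and fell (-0.60 ± 0.10, SE, adjusted p = 0.000734).

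The next peak had the largest Kbu rise of all members. Peak4398 (chr30:106523-107401, 878 bp) had Kbu levels of 1.13 and 1.18 at high CO2, against 2.60 and 2.78 at low CO2, a change of 1.66 ± 0.09 (SE, adjusted p = 6.95e-07). H3K9me2 at peak4398 was 0.965 and 1.69 at high and 1.37 and 1.60 at low CO2, so its groups overlapped (adjusted p = 0.989). The largest fall was at peak4448 (chr30:379392-380734, 1342 bp), with 3.71 and 4.22 at high and 1.39 and 1.34 at low CO2 (-1.0 ± 0.09, SE, adjusted p = 1.91e-05). The peak just before it, peak4447 (chr30:374179-375383), had the most Kbu of chromosome 30, 5.97 and 6.31 at high and 4.07 and 4.60 at low CO2, and did not pass (adjusted p = 0.994). By the ratio its Kbu change was -0.40 (limma, adjusted p = 2.67e-05).

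Peak4400 (chr30:125831-127265, 1434 bp) had the highest H3K9me2 of chromosome 30, with 1.57 and 1.54 at high and 2.08 and 2.82 at low CO2. The groups did not overlap, but the change did not pass (0.42 ± 0.15, SE, adjusted p = 0.0772) and was -0.09 by the ratio. Kbu at peak4400 rose from 3.93 and 3.70 to 4.98 and 5.54 (0.95 ± 0.07, SE, adjusted p = 4.28e-06). The widest peak of the chromosome, peak4434 (chr30:295329-296812, 1483 bp), had Kbu levels of 2.76 and 2.89 at high and 2.09 and 1.96 at low CO2. It did not pass for either mark by the scaled pileup. By the ratio its changes were 0.31 for Kbu (limma, adjusted p = 0.00704) and 0.43 for H3K9me2 (adjusted p = 0.0487).

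**Figure D4:**
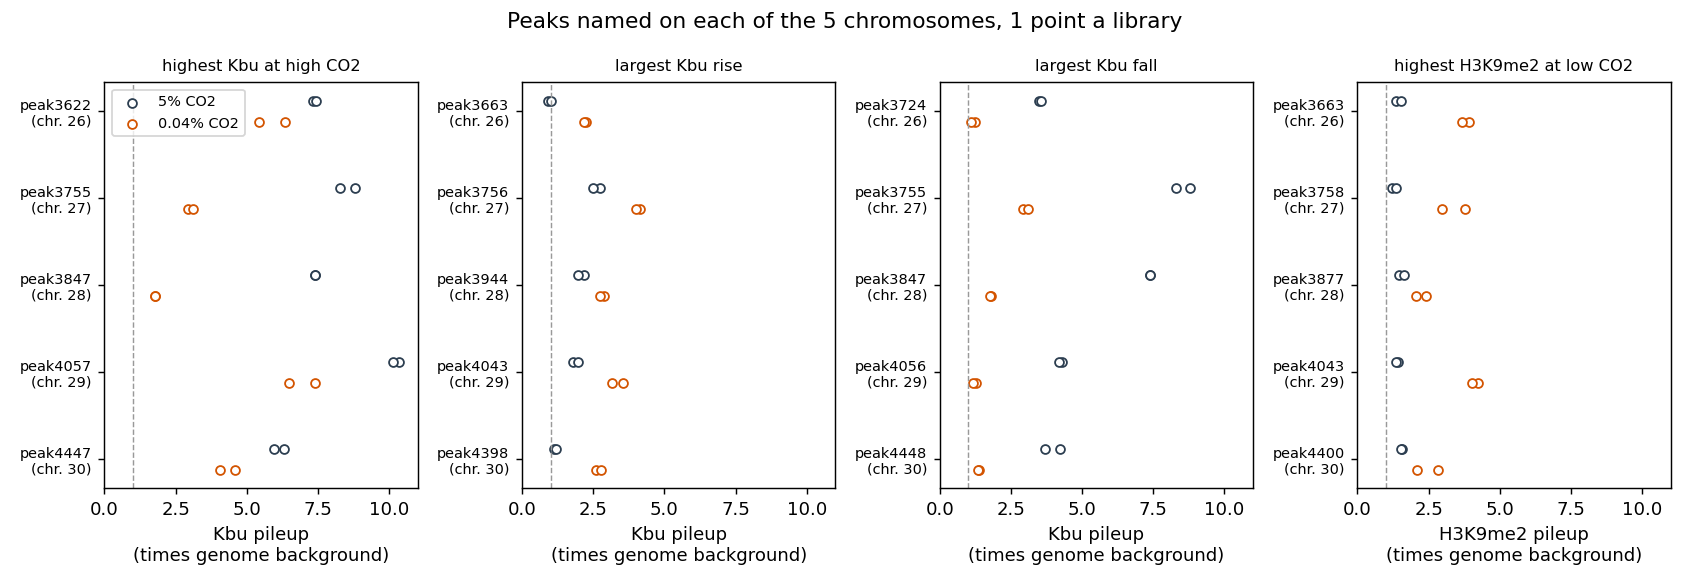
Levels of the named peaks of chromosomes 26 to 30 in each library, in times the genome background (dashed line at 1), for the peak with the highest Kbu at high CO2, the largest Kbu rise, the largest Kbu fall and the highest H3K9me2 at low CO2. Each circle is 1 library at 5% CO2 (dark) or 0.04% CO2 (orange), and the rising peaks start between 0.923 and 2.73 while the falling ones start between 3.49 and 8.80.

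The authors' deposited table marks 87 of the 526 Kbu peaks as loss (16.5%; all peaks 15.6%) and 28 as gain (5.32%; all peaks 2.93%), with loss standing for less signal under high than low CO2. By chromosome the authors' deposited table has 13, 19, 18, 19 and 18 Kbu losses on chromosomes 26 to 30, which is 24.0% of chromosome 30 and 10.7% of chromosome 26, and 4, 6, 5, 10 and 3 gains. For H3K9me2 the authors' deposited table has 40 losses (7.60%; all peaks 7.73%) and 0 gains among the members and 0 gains over all peaks. An adjusted p is given for 187 members for Kbu and 87 for H3K9me2, and in the authors' deposited table it is under 0.05 in 56 (29.9%; all peaks with one 25.3%) and 30 (34.5%; all peaks with one 28.8%). All 56 and all 30 are lower at high CO2, so each is higher at low CO2. The same holds over all peaks for 623 of 624 and for 296 of 296. The scaled pileup, by contrast, gave more Kbu members lower than higher at low CO2. Of the largest Kbu falls named above, those on chromosomes 27 to 30 are marked gain and that on chromosome 26 stable, all without an adjusted p. That status was made from the ratio to control, and its part in the difference between chromosomes was not tested.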

How the data were processed

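ChIP-seq of Kbu and H3K9me2 was analysed in 8 libraries, 2 per mark and CO2 level, with groups and replicate numbers taken from the sample titles. Trim Galore, BWA, Picard, deepTools and MACS2 were used, per the submitters' processing notes. The sources used here do not give versions, settings, the genome build or how peaks were merged. The 6185 peaks are the same in the tables of both marks, and of 35 columns 29 are identical. Per the file headers the authors deposited for each library a pileup signal and a control signal named lambda, with a normalised signal, 10 times the ratio of pileup to control, rounded down and divided by a factor of the library, as checked in the values. Per the file headers the authors' comparison adds a log2 fold change (high over low CO2), a test statistic given as a score, a p-value and an adjusted p-value. Start and end are in bp as deposited. None of these is a count, so no count test was run.

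Members are all peaks of chromosomes 26 to 30. The members, tests and named-peak rule were chosen with earlier results of these data known. Low was compared with high CO2 in limma 3.58.1 under R 4.3.3, two-sided, with empirical Bayes moderation and a trend on the mean, on log2(value + 1) over all 6185 peaks of a mark's 4 libraries, with no filter, so fold changes of low values are understated. The prior degrees of freedom were 8.64 for Kbu and 525 for H3K9me2, and the small p-values of H3K9me2 rest on nearly 1 spread for peaks of like level. In a library every pileup was a whole multiple of 1 step, taken as 1 read. Total depth is unknown, and counting errors cover counting only. That the lowest control value is the genome background is an assumption. Tables were made in pandas 2.3.3, NumPy 2.4.6 and SciPy 1.17.1 and figures in Matplotlib 3.10.9, under Python 3.11.15, and the fit was tested on simulated data. Peaks were named on each chromosome by highest Kbu at high CO2, largest Kbu rise and fall, highest H3K9me2 at low CO2, greatest width and the sides of the widest gap. No sequence is shown, since a genome of the files' build was not used here. Alternatives were other scalings, the ratio, pseudocounts, a filter on low values, a replicate block, each library or chromosome left out, a stricter threshold and other distance measures.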

Additional observations from a re-analysis of the deposited data

How the results depend on the processing

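Replicate numbers are shared between CO2 levels, but with 2 pairs and a correlation of deviations of 0.111 for Kbu and 0.042 for H3K9me2 the libraries share only a number. In the member counts that follow, those over all peaks fitted are in brackets. With the replicate block Kbu was higher in 108 (1376) and lower in 169 (1615) members. H3K9me2 was then higher in 28 (282) and lower in 2 (74), against 0 members lower without the block. At an adjusted p under 0.01 the pileup gave 70 Kbu higher (894), 107 Kbu lower (964) and 14 H3K9me2 higher (154). Without the lowest 25% of peaks it gave 70 Kbu higher (906) and 2 H3K9me2 lower (53), and the H3K9me2 ratio 12 lower (201). The genome background gave 24 Kbu higher (223) and 450 lower (5176). The ratio in place of the pileup gave 210 Kbu higher (2474), 132 H3K9me2 higher (1516) and 52 H3K9me2 lower (750). With equal library totals the H3K9me2 ratio gave 80 higher (879) and 134 lower (1780). With each library left out, Kbu pileup calls ran from 65 to 140 (higher) and 95 to 200 (lower), H3K9me2 pileup calls from 8 to 15 and 0 to 2, Kbu ratio calls from 128 to 220 and 87 to 167, and H3K9me2 ratio calls from 68 to 116 and 1 to 51. The median width ratio of 0.995 became 1.02 within 100 kb of the outermost peaks and the gap ratio of 1.22 became 1.04, both chosen after seeing the data. At named peaks these settings were followed only for the mark that named the peak, with Kbu for the widest peaks. The neighbours of the widest gaps were not followed. Changes of sign among the values followed were for Kbu peak3622 -0.52 (ratio) and -0.33 (genome background), peak3716 and peak4434 -0.47 each (genome background) and peak4447 0.0162 (library median). With each library left out the Kbu change ran from -0.0045 to 0.0516 at peak3716, from -0.177 to 0.0599 at peak4057, from -0.0435 to 0.0909 at peak4434 and from -0.0639 to 0.0622 at peak4447. For H3K9me2 it was peak4400 with -0.0895 (ratio). None of these passed at the main setting. Some changes not followed passed by the pileup and had the opposite sign by the ratio, where they did not pass. Among them were H3K9me2 at peak3755 (0.58 and -0.36) and peak3622 (0.49 and -0.21) and Kbu at peak3726 (0.33 and -0.10). The cause was not tested. Of the other values followed at named peaks, 222 kept sign and side of the threshold, 10 now passed and 1 no longer did. That value was H3K9me2 at peak3758, 0.16 by the ratio. Kbu at peak3758, which was not followed, also passed by the pileup and did not by the ratio (0.97 and 0.01). H3K9me2 rested on 29 to 69 reads at the median member, and the part of depth in its calls was not tested.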

Other observations

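The share of peaks with lower Kbu varied along the 5 chromosomes. With each chromosome divided into 5 equal parts from its first to its last peak, Kbu was lower at low CO2 (limma on the scaled pileup, adjusted p under 0.05) in 28.6%, 28.3%, 26.9%, 35.1% and 40.0% of members from the first part to the last, against 29.4%, 22.5%, 21.4%, 23.4% and 28% on chromosomes 1 to 25. The highest value of a single part was 56.3%, 9 of 16 peaks, in the last part of chromosome 27, where the median Kbu level went from 4.23 at high CO2 to 2.16 at low CO2. The first part of chromosome 26 had the lowest among those with more than 1 peak, 9.09%. These parts were chosen after seeing the data and have no test.

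The 10 outermost peaks differed widely among themselves. At high CO2 their Kbu levels ran from 0.655 at peak4396, the first of chromosome 30, to 10.3 at peak4057, the last of chromosome 29. At peak3729, the first of chromosome 27, Kbu went from 4.25 and 4.15 to 1.85 and 1.84 and was lower (limma, adjusted p = 7.60e-05), and at peak3835, the last of the same chromosome, it went from 3.87 and 4.13 to 3.52 and 3.78 and was higher relative to the typical peak (adjusted p = 0.00168). H3K9me2 was called higher at peak3607, peak3836 and peak3945, the first peaks of chromosomes 26, 28 and 29, with adjusted p of 0.00329, 0.00028 and 0.0456. The last peaks had adjusted p from 0.129 to 0.930.

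Some closely set peaks held unequal Kbu. Besides peak3663 and peak3664, peak3708 and peak3709 on chromosome 26 lay 94 bp apart, with Kbu levels at high CO2 of 2.25 and 2.17 in the first and 0.796 and 0.809 in the second. On chromosome 29, peak3961 and peak3962 lay 204 bp apart, with 3.87 and 3.63 in the first and 0.950 and 1.02 in the second. In these 3 pairs, the closest, the level of the second peak was 3.62, 0.363 and 0.263 times that of the first. The next closest, peak3883 and peak3884 on chromosome 28, lay 260 bp apart and differed less, with a factor of 1.17. Their levels were 1.12 and 1.18 in the first and 1.33 and 1.36 in the second. Peak3962 and peak3963 on chromosome 29, 281 bp apart, had 0.950 and 1.02 in the first and 2.71 and 2.99 in the second. Libraries of neighbours did not overlap in any of these pairs, and how often other neighbours overlap was not examined. Across 521 neighbouring members the Spearman correlation of the Kbu level at high CO2 was 0.137, against -0.010 on chromosomes 1 to 25, and that of the Kbu change was 0.062 against 0.047, as descriptions over peaks that share their libraries. The correlation of the level differed among chromosomes 26 to 30, with 0.223, 0.009, 0.049, 0.148 and 0.254 in that order.

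Wider members carried more of both marks. With all peaks split at the quartiles of width, and going from narrow to wide, the median Kbu level of members at high CO2 was 2.97, 3.56, 4.17 and 4.26, and the median H3K9me2 level at low CO2 was 1.46, 1.52, 1.57 and 1.75. Kbu was lower at low CO2 in 23.3%, 26.5%, 38.7% and 37.9% of members in these classes, and in 18.1%, 24.2%, 24.5% and 31.6% of peaks of chromosomes 1 to 25. The share was above that of chromosomes 1 to 25 in each class. A wider peak offers more positions for a high pileup, and the part of this in the levels was not tested.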
